A study of Homo sapiens and Mus musculus with 22 samples.

Results

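BIX-01294 was set beside mock in U2OS cells labelled as an ATG5 knockdown (ATG5 KD). U2OS is a human osteosarcoma line. BIX-01294 (BIX) is a small molecule known as an inhibitor of EHMT2 (G9a) and EHMT1 (GLP), the enzymes that place mono- and dimethyl marks on lysine 9 of histone H3, and the cells labelled BIX received it at 10 µM for 12 h. The comparison holds 2 of the 22 samples of the series, 1 FPKM value per gene for ATG5 KD cells with BIX and 1 for ATG5 KD cells labelled mock. FPKM is the number of sequenced fragments scaled to transcript length and library size, so it gives the level of an RNA relative to the rest of the library. U2OS cells labelled vector, with BIX or mock, form the other 2 values of the same table. Per the labels each value stands for 2 replicates. How they were joined was not stated and their separate values were not held, so no value below has an error of its own and no test was made. The labels disagree on mock: a note on treatment gives BIX to all cells, whereas the name and treatment label of 2 of these 4 values read mock. Names decided here, and the content of mock, the means of knockdown, the number of clones and the vector insert were not given in the sources used here.

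A gene was counted where either value reached FPKM 1, which held for 12602 of the 23760 genes in the table. Ratios below are log2 ratios of (BIX FPKM + 1) over (mock FPKM + 1), which understate differences of genes near the bottom of the scale. A gene is called higher or lower with BIX where this ratio is at least 1 or at most -1, that is, at least 2-fold on that scale. The only spread between U2OS libraries to set beside a ratio came from 6 mock U2OS libraries of another table of the series, in which 2 SETDB1 knockouts and wild-type cells had 2 libraries each. In those 3 pairs 23, 20 and 32 genes were 2-fold apart, or 0.183%, 0.159% and 0.255% of the genes counted. The largest of a gene's 3 differences between replicates had a median of 0.24 on the log2 scale and is called its replicate difference below. That table was normalized on its own and held no BIX-treated library.

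The level of ATG5, whose product is joined to ATG12 and directs the attachment of lipid to LC3, was read first. ATG5 had 13.4 FPKM with BIX and 10.1 FPKM in mock in the ATG5 KD cells, against 12.3 FPKM with BIX and 11.3 FPKM in mock in the vector cells. ATG5 KD over vector was 0.12 with BIX and -0.16 in mock on the log2 scale, and both lie within the replicate difference of ATG5, 0.27. The RNA level therefore does not tell ATG5 KD from vector, and ATG5 KD means the label throughout. Of 7 mesenchyme markers counted 1 had a ratio above 0 and 1 was lower, with a median of -0.63. Vimentin (VIM) had 888 FPKM with BIX and 1041 in mock, and COL1A1, a chain of type I collagen, had 156 FPKM with BIX against 248 in mock (-0.67). The marker above 0 was SPARC, a matrix protein of bone, with 406 FPKM with BIX and 385 in mock. All 5 bone markers counted were above 0, with none called, and that of BGLAP is an entry joined with PMF1 and SLC25A44. The lowest of the 5 ratios was 0.13. With both values brought to the same FPKM sum the median of all genes moved from 0.01 to -0.19, so ratios this small may not keep their sign. The bone transcription factor RUNX2 had 11.6 FPKM with BIX against 10.5 in mock. SP7 and IBSP, which mark mature osteoblasts, were below FPKM 1 in both values. The keratins KRT8 and KRT18 had 633 and 537 FPKM with BIX and 486 and 350.1 FPKM in mock. The entry joining KRT19 with KRT14 and KRT16 had 8.30 FPKM with BIX and 11.7 in mock (-0.45), the epithelial adhesion gene EPCAM had 2.90 FPKM with BIX against 3.16 in mock, and CDH1 and KRT5 stayed below FPKM 1. CD3E of T lymphocytes was listed at 0 in both values. In bulk RNA, fewer cells of a type and less RNA per cell cannot be told apart.

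The pathways described below are stress and signalling systems of every cell, and a few facts on them are useful. In the integrated stress response, kinases that sense amino acid shortage, unfolded protein, viral RNA or haem lack phosphorylate eIF2alpha, which lowers general translation while ATF4 is made and turns on DDIT3, ATF3 and TRIB3. Metallothioneins bind zinc and copper and are induced through MTF1, a factor that senses zinc. Immediate early genes such as FOS and EGR1 are transcribed within minutes of growth factor or stress signals, and dual-specificity phosphatases and Sprouty proteins dampen the kinases that induced them. In autophagy the ULK and VPS34 complexes start a membrane, the ATG5-ATG12 conjugate helps to couple LC3 to it, receptors such as SQSTM1 bring cargo, and the vesicle fuses with the lysosome, whose genes are controlled by TFEB and TFE3. BIX is known from other work to induce autophagy.

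With BIX, 1011 genes were higher (8.02% of those counted) and 464 were lower (3.68%), so that 11.7% were apart. Of the 1475 genes apart, 1471 exceeded their replicate difference, as did 8343 of all 12580 genes with such a value. The 1475 were chosen for ratios of at least 1 or at most -1, against a median replicate difference of 0.24. That 1471 of them exceeded it therefore follows largely from the choice and is no separate test of the calls. The median ratio of all genes was 0.01, and the SD of the ratio over genes was 0.69. The upper side reached farther, since 160 genes were 4-fold higher and 13 were 4-fold lower, and 40 were 8-fold higher and 0 were 8-fold lower. The split depends on scaling: after both values were brought to the same FPKM sum, 695 genes were higher and 839 lower (45.3% of them higher, against 68.5% as deposited), and the median of all genes moved to -0.19. The deposited FPKM sums were 563220 with BIX and 484566 in mock. With a pseudocount of 0.1 in place of 1 the counts were 1307 higher and 1043 lower. Genes that were low in mock held the largest share of calls upward, with 153 of 398 genes under FPKM 1 called higher, but these were counted for their BIX value alone and had to differ. On the gene lists below, without those of ZNF-named genes and cell type markers, 33 of 1000 genes were counted in that way. Of these 20 were called higher, and 23 others were counted for their mock value alone with 3 called lower. At the same FPKM sum the genes called on the same lists were 139 higher and 50 lower, against 167 and 29 as deposited. At the other end, 21 of 728 genes at FPKM 100 or more were higher and 9 were lower. Among genes annotated as protein coding 825 of 9905 were higher and 350 lower, and among long non-coding RNA genes 25 of 321 were higher and 22 lower.

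**Figure D1:**
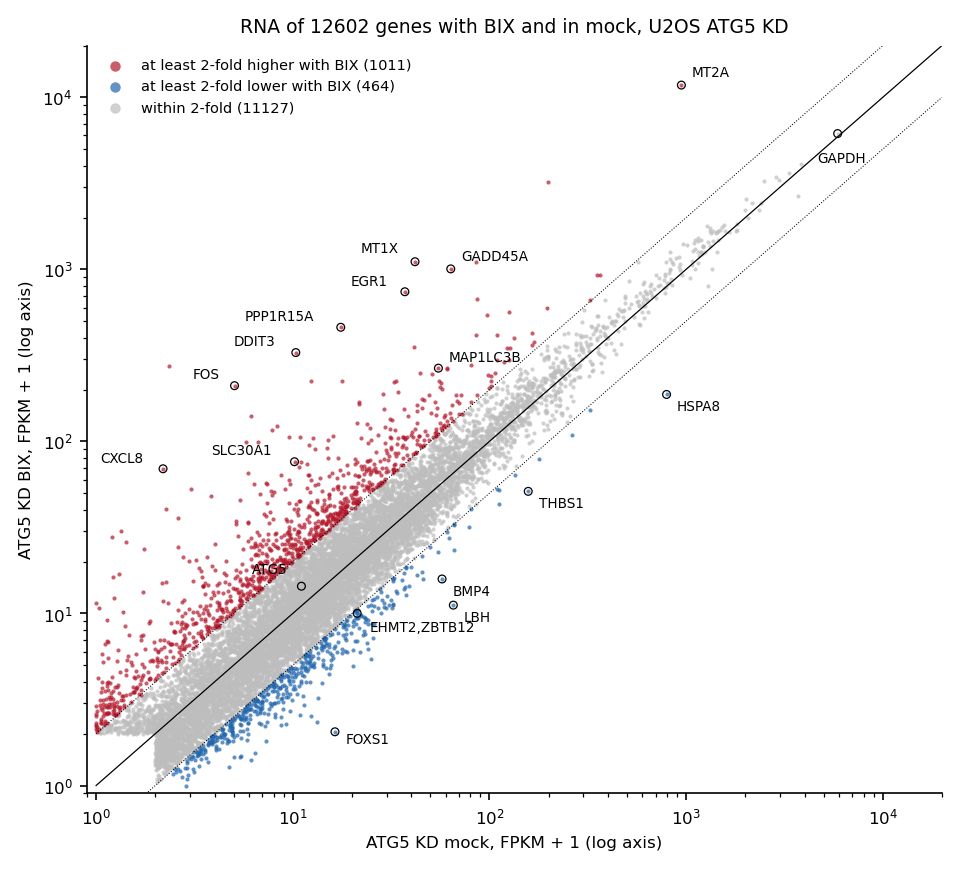
Levels of the 12602 genes in ATG5 KD cells with BIX (vertical axis) and mock (horizontal axis), both as FPKM + 1 on log axes, 1 point per gene and 1 value per axis. The 1011 genes called higher and the 464 called lower are coloured, and the higher ones reach farther from the solid line of equal levels than the lower ones, as FOS does at 209.8 FPKM with BIX and 4.06 in mock.

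Stress and early response genes stood at the upper end. FOS, an AP-1 subunit, had 209.8 FPKM with BIX and 4.06 in mock, a ratio of 5.38. DDIT3 (CHOP), a stress-induced transcription factor that ATF4 turns on, had 327 FPKM with BIX against 9.36 in mock (4.99). CXCL8 (interleukin 8), which attracts neutrophils, had 68.3 FPKM with BIX and 1.19 in mock (4.98). Metallothionein MT1X had 1106 FPKM with BIX against 40.8 in mock (4.73). PPP1R15A (GADD34), the phosphatase subunit that removes the phosphate from eIF2alpha, had 459 FPKM with BIX and 16.5 in mock (4.71). GEM, a small GTPase of the RGK family that binds calcium channels, had 139.6 FPKM with BIX against 5.13 in mock (4.52). RRAD of the same family had 29.2 FPKM with BIX and 0.332 in mock (4.50). EGR1, a zinc finger factor of the early response, had 739.9 FPKM with BIX against 36.2 in mock (4.32). These 8 genes lay far outside their replicate differences, of which the largest was 0.69, for EGR1. They were chosen for their large ratios, so this follows in part from the choice, and RRAD was counted for its BIX value alone.

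The 20 genes with the largest ratios among those with FPKM 5 or more also held FOSB (4.21), ARC (4.18), the GTPase ARL14 (4.12), the phosphatase DUSP2 (4.09), the joined entry of MT1E with MT1JP (4.02), the growth arrest gene GADD45A (3.98), ATF3 (3.89), the stress cytokine GDF15 (3.89) and MAFF (3.88). DCDC2C, which encodes a doublecortin domain protein, had 26.7 FPKM with BIX and 0.203 in mock. Like FOSB, it was counted for its BIX value alone and could only have a ratio above 0. CFLAR-AS1, an RNA antisense to the caspase inhibitor gene CFLAR, had 39.7 FPKM with BIX against 1.25 in mock, but without known strandedness its reads and those of CFLAR cannot be told apart.

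**Figure D2:**
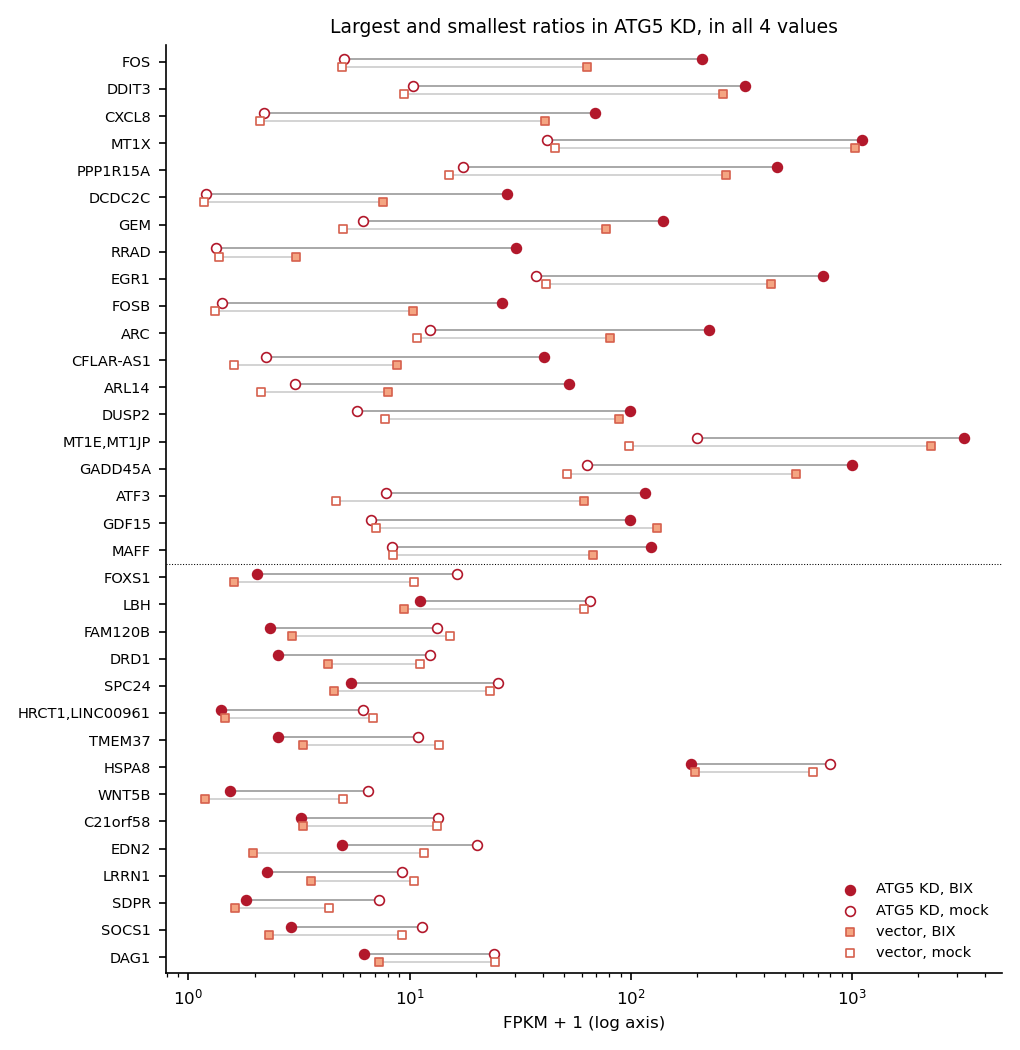
Levels (FPKM + 1, log axis) of 19 of the 20 genes with the largest (above the dotted line) and the 15 with the smallest ratio in ATG5 KD among genes with FPKM 5 or more, circles for ATG5 KD and squares for vector, filled with BIX and open in mock, 1 value per marker. The 19 and the 15 are at least 2-fold apart on the same side in vector, where RRAD and ARL14 have the shortest lines among the higher genes, at log2 ratios of 1.15 and 1.91.

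To describe the response by pathway, 37 gene lists were used. Without the list of ZNF-named genes and the lists of cell type markers, they hold 1000 of the genes counted and 167 of the 1011 higher genes. These lists also hold 64 of the 160 genes that were 4-fold higher and 25 of the 40 that were 8-fold higher. On the lower side they hold 29 of 464 genes, and 3 of the 13 that were 4-fold lower. Counts on a list are to be read against 8.02% higher and 3.68% lower among all genes.

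**Figure D3:**
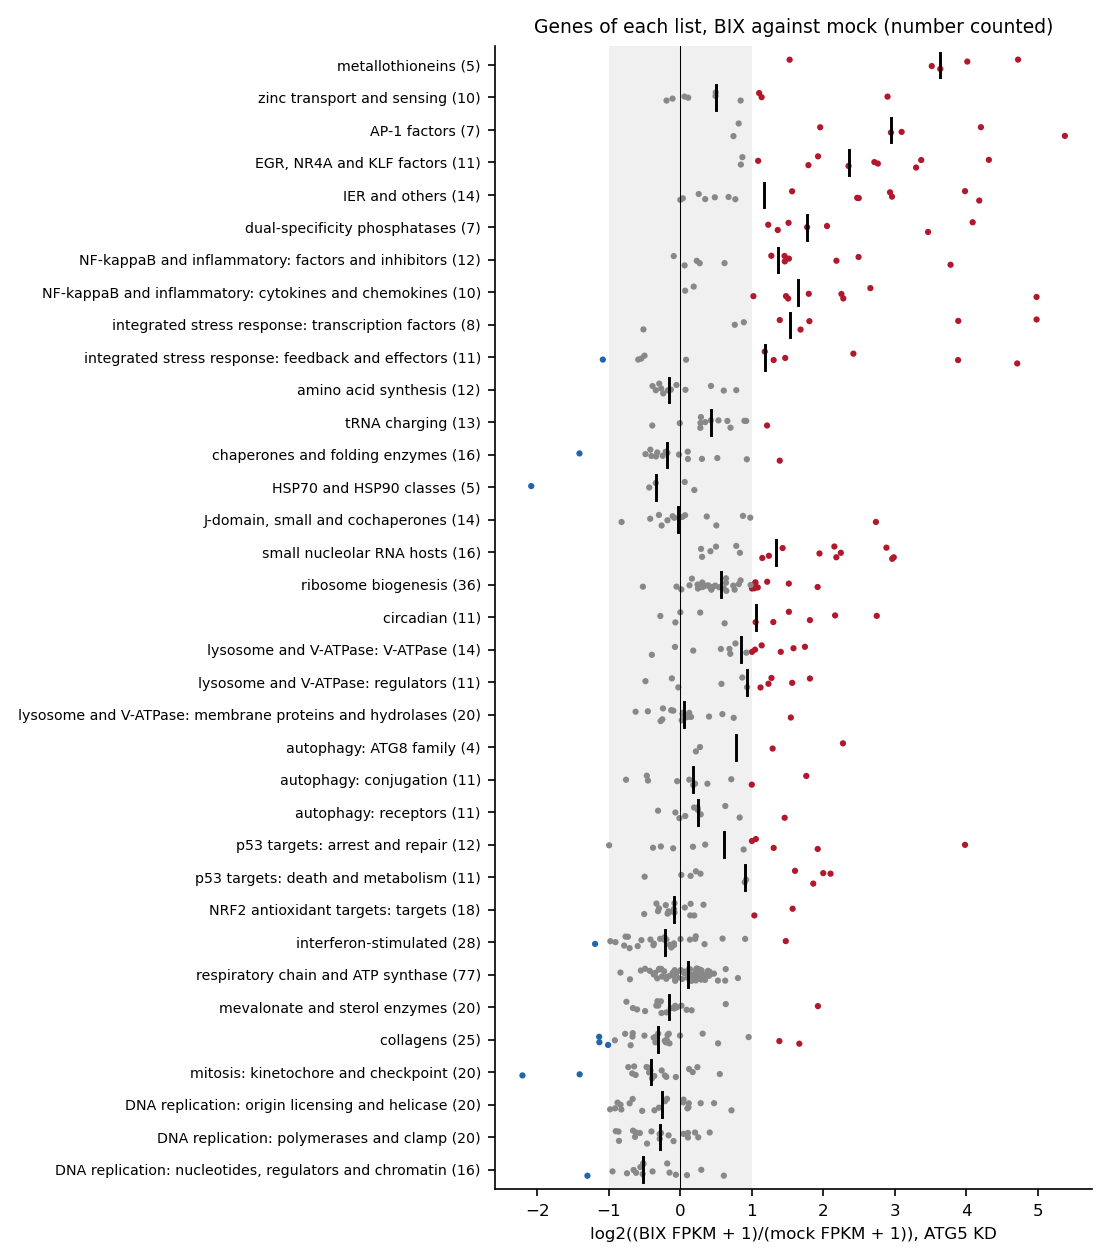
Log2 ratio of BIX over mock in ATG5 KD cells (horizontal axis) for each counted member of the gene lists, by role, with the number counted in brackets, a bar at the median and a grey band where genes were within 2-fold. Dual-specificity phosphatases and metallothioneins lie right of the band with the 7 and the 5 members counted (MT1G and MT1B, at 0 in mock, were counted for their BIX value alone and are placed by the pseudocount), and the respiratory chain lies inside it with all 77.

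Of 23 integrated stress response genes counted, 12 were higher and 1 was lower, with a list median of 1.14. Among the eIF2alpha kinases, EIF2AK3 (PERK), the sensor of unfolded protein in the endoplasmic reticulum, was higher, with 14.8 FPKM with BIX and 6.18 in mock. EIF2AK4 (GCN2), which senses uncharged tRNA, had 17.9 FPKM with BIX against 26.1 in mock. Of 8 transcription factors 5 were higher. ATF4, the factor through which the kinases act on transcription, had 925 FPKM with BIX and 352 in mock (1.39). ATF3, a factor downstream of ATF4, had 115 FPKM with BIX against 6.84 in mock (3.89). CEBPB and CEBPG, partners of ATF4 and CHOP, had ratios of 1.81 and 1.68. Of 11 feedback and effector genes 6 were higher, with PPP1R15A and GDF15 among them. TRIB3, a pseudokinase that restrains ATF4 and CHOP, had 37.1 FPKM with BIX and 6.11 in mock. PPP1R15B, the constitutive counterpart of PPP1R15A, had 30.7 FPKM with BIX against 10.4 in mock. SESN2, an inhibitor of mTORC1, had a ratio of 1.31. The member on the lower side was DDIT4 (REDD1), also an inhibitor of mTORC1, with 11.2 FPKM with BIX and 24.8 in mock. CHAC1, which degrades glutathione and is known as a target of ATF4, had 3.34 FPKM with BIX against 5.53 in mock.

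Genes further along the same pathway were mostly within 2-fold. Of 12 genes of amino acid synthesis, 0 were higher or lower, with a median of -0.15, and asparagine synthetase (ASNS) had 47.0 FPKM with BIX and 48.8 in mock. Of 9 amino acid transporters 2 were higher. SLC3A2 (CD98), the heavy chain shared by several amino acid exchangers, had 414 FPKM with BIX against 84.9 in mock (2.27). Its partner SLC7A5 (LAT1) had 119 FPKM with BIX and 86.0 in mock (0.46). The arginine transporter SLC7A1 had a ratio of 1.20. Of 13 genes of tRNA charging, seryl-tRNA synthetase (SARS) was higher (1.21), and the median was 0.43.

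The promoters of DDIT3 and PPP1R15A are printed here because these are the 2 transcripts of the pathway with the largest ratios, and each holds a listed motif in the window from 250 bases before to 50 after the start. Promoter sequences are RefSeq's, of GRCh38.p14, given 5′ to 3′ on the gene's strand, and 9085 of the 12602 genes matched an entry. Motifs were searched on both strands, overlapping matches count separately, and the promoters shown here and below were chosen after their matches were seen. Capitals mark the cAMP response element TGACGTCA in PPP1R15A (chr19:48872171-48872470, plus strand) and the AP-1 element TGANTCA in DDIT3 (chr12:57520465-57520764, minus strand).
PPP1R15A: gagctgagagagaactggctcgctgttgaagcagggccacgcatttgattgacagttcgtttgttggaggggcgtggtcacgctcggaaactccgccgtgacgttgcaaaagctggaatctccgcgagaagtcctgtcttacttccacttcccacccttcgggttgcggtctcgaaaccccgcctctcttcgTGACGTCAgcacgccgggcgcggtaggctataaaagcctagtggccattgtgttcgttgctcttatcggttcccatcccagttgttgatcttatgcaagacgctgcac
DDIT3: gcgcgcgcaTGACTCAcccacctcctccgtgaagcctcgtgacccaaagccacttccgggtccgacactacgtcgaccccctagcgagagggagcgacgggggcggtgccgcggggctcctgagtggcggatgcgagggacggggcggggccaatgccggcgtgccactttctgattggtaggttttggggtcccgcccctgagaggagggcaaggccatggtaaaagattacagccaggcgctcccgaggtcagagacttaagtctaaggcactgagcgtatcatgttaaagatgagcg
The element TGACGTCA was in 3.35% of all 9085 promoters, in 5.21% of the 730 promoters of higher genes and in 0.943% of the 318 of lower genes. The composite of ATF4 and CHOP, TGATGNAAN, was in 1.73% of all promoters and in 4 of the 20 matched on the stress response list, those of ATF3, PPP1R15B, CHAC1 and FGF21. A match describes the letters of the window and is neither a bound site nor a cause.

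Protein folding genes showed no shift of that size. Of 16 chaperones and folding enzymes of the endoplasmic reticulum 1 was higher and 1 lower, with a median of -0.19. HSPA5 (BiP), the main chaperone there and a standard readout of unfolded protein, had 162 FPKM with BIX against 228 in mock (-0.49). SDF2L1, a cofactor of HSPA5, was lower with 12.8 FPKM with BIX and 35.7 in mock. ERO1LB, an oxidase that helps to form disulphide bonds, was higher with 4.33 FPKM with BIX against 1.03 in mock. XBP1, whose RNA is spliced by the sensor ERN1, had 51.8 FPKM with BIX and 46.6 in mock, and gene-level values do not show splicing. SEL1L, which draws misfolded proteins out of the endoplasmic reticulum, was lower with 7.62 FPKM with BIX against 18 in mock.

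Of 21 cytosolic heat shock genes counted 1 was higher and 1 lower. HSPB8, a small heat shock protein that works with BAG3 in selective autophagy, had 222 FPKM with BIX and 32.5 in mock (2.74). BAG3 had 49.6 FPKM with BIX against 24.7 in mock (0.98), just short of 2-fold. HSPA8 (HSC70), the constitutive cytosolic chaperone that also delivers proteins to the lysosome in chaperone-mediated autophagy, had 186 FPKM with BIX and 794 in mock (-2.09), far beyond its replicate difference of 0.10. It was 1 of only 13 genes 4-fold lower. Other abundant chaperones were closer to mock. HSP90AA1, the inducible cytosolic HSP90, had 366 FPKM with BIX against 464 in mock. HSP90AB1, the constitutive one, had 1113 FPKM with BIX and 1066 in mock. The inducible genes HSPA1A and HSPA1B, near-identical copies between which reads are hard to assign, were below FPKM 1 in both values and were not counted. The HSPA8 promoter (chr11:123062087-123062386, minus strand) holds the heat shock element, 3 inverted GAA units, in capitals, which 0.308% of all promoters hold, and is printed because HSPA8 stood apart from the other chaperones.
HSPA8: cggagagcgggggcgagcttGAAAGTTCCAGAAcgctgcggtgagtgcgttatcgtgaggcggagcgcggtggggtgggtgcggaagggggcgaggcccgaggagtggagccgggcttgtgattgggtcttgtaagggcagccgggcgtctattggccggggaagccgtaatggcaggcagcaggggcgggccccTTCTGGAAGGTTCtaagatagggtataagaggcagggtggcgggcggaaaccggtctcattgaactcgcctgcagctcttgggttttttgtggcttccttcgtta
Of the 17 heat shock genes with a matched promoter 4 hold the element, those of HSPA8, DNAJA1, DNAJB6 and CHORDC1. DNAJA1 had a ratio of -0.26, DNAJB6 one of 0.88 and CHORDC1 one of 0.50.

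Metallothioneins were the most abundant RNAs that differed. Of 11 listed 5 were counted and called higher, but MT1G and MT1B, being at 0 in mock, were counted for their BIX value alone and could only come out higher. MT2A had 11774 FPKM with BIX against 945 in mock (3.64), which was the highest FPKM of any gene with BIX. The entry that joins MT1E with the pseudogene MT1JP had 3216 FPKM with BIX and 198 in mock (4.02). MT1G had 10.5 FPKM and MT1B 1.89 FPKM with BIX, and no ratio is given for either. MT1H, MT1F and MT1M stayed below FPKM 1, and MT1A and MT1L were listed at 0. Summed over the list, metallothioneins held 2.86% of the FPKM sum with BIX and 0.244% in mock. Members of this family are near-identical in sequence, so reads may be divided between them in ways that the deposited values do not show.

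Among 10 genes of zinc transport and sensing 3 were higher. SLC30A1 (ZNT1), which exports zinc across the plasma membrane and is a known target of MTF1, had 75.2 FPKM with BIX against 9.20 in mock (2.90). SLC30A7, which loads zinc into the Golgi, had 7.83 FPKM with BIX and 3.01 in mock. SLC30A2, a vesicular zinc transporter, had 1.18 FPKM with BIX against 0.0133 in mock. It was counted for its BIX value alone and could only have a ratio above 0. MTF1 itself had 6.21 FPKM with BIX and 4.11 in mock (0.50). The promoters of MT1X (chr16:56682220-56682519, plus strand), MT2A (chr16:56608334-56608633, plus strand) and SLC30A1 (chr1:211579112-211579411, minus strand) are printed because all 3 genes are known MTF1 targets with large ratios. Capitals mark the core of the metal response element, TGCNCNC.
MT1X: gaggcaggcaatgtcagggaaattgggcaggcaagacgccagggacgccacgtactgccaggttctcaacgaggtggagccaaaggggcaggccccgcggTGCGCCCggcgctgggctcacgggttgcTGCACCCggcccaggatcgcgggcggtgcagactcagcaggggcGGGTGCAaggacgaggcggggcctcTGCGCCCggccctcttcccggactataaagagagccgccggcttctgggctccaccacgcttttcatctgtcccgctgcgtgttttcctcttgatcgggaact
MT2A: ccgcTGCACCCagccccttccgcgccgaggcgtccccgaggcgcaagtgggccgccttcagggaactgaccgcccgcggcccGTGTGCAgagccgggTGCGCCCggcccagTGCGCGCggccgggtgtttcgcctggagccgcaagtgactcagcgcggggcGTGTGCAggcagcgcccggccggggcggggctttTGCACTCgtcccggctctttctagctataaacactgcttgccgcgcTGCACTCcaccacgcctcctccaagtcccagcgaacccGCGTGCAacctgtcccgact
SLC30A1: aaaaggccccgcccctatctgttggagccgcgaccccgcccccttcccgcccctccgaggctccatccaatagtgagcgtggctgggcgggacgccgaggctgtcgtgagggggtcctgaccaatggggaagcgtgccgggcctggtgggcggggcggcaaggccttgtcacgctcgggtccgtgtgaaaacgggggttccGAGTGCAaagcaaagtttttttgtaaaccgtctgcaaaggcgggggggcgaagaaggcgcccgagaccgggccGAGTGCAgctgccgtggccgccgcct
MT1X holds 4 matches, MT2A 8 and SLC30A1 2. A match alone tells little here, since 63.9% of all promoters, 63.3% of those of higher genes and 66.4% of those of lower genes hold at least 1. The 3 metallothionein promoters matched held 5.67 each on average and all promoters 1.09.

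Of 6 regulators of the NRF2 pathway 3 were higher, and of 18 antioxidant targets 2 were higher and 0 lower. MAFF, a small MAF protein that pairs with NRF2 or BACH1, had 122 FPKM with BIX against 7.34 in mock (3.88). MAFK had 69.5 FPKM with BIX and 23.5 in mock (1.52). The entry holding BACH1, a repressor of NRF2 targets, had a ratio of 1.66. NFE2L2 (NRF2) had 67.4 FPKM with BIX against 37.1 in mock (0.85). HMOX1, the haem-degrading enzyme that BACH1 represses, had 53 FPKM with BIX and 17.2 in mock (1.57). OSGIN1 had 17.0 FPKM with BIX against 7.75 in mock (1.04). Standard NRF2 targets were close to mock. NQO1, a quinone reductase, had 47.6 FPKM with BIX and 52.9 in mock. GCLM, a subunit of the first enzyme of glutathione synthesis, had 7.09 FPKM with BIX against 8.94 in mock. The median of the 18 targets was -0.08.

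Of 32 immediate early genes 21 were higher and 0 lower, and their median was 2.16. Of the 32, 5 were counted for their BIX value alone and could only have ratios above 0, and 4 of these were called higher. Of 7 AP-1 subunits 5 were higher, with FOSB among them counted for its BIX value alone. Besides FOS, FOSL1 had 353 FPKM with BIX and 40.4 in mock (3.10). JUNB had 167 FPKM with BIX against 20.8 in mock (2.95). JUN had 218 FPKM with BIX and 55.4 in mock (1.96). JUND and FOSL2 had ratios of 0.82 and 0.74. Of 11 EGR, NR4A, KLF and related factors 9 were higher, but 4 of the 11 were counted for their BIX value alone, with 3 called. NR4A1, an orphan nuclear receptor, had 106 FPKM with BIX against 9.83 in mock. MYC, the growth factor response gene and oncogene, had 188 FPKM with BIX and 27.8 in mock (2.72). KLF10, first known as a TGF-beta early gene, had 222 FPKM with BIX against 31.8 in mock. Of 14 further early genes 7 were higher. ZFP36, which speeds the decay of cytokine RNAs, had 56.0 FPKM with BIX and 6.32 in mock (2.96). IER2 had 249 FPKM with BIX against 43.3 in mock (2.5). CYR61 and CTGF, targets of YAP and SRF, had ratios of 0.68 and 0.04.

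The brakes of MAP kinase signalling were higher too. All 7 dual-specificity phosphatases counted were higher, with a median of 1.77. DUSP5, which acts on nuclear ERK, had 64.4 FPKM with BIX and 4.91 in mock (3.47). DUSP1, which prefers JNK and p38, had 105 FPKM with BIX against 30.1 in mock (1.77). DUSP10, also a JNK and p38 phosphatase, had 13.5 FPKM with BIX and 2.49 in mock. DUSP6 and DUSP4, phosphatases of ERK, were below FPKM 1 in both values and were not counted. Of 5 Sprouty, SPRED and related genes 3 were higher. SPRY2 had 33.5 FPKM with BIX against 4.12 in mock. ERRFI1 (MIG6), an inhibitor of the EGF receptor, had 103 FPKM with BIX and 36.3 in mock, and SPRED1 had a ratio of 1.02.

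Of 27 NF-kappaB and inflammatory genes counted 18 were higher and 0 lower, with a median of 1.46. Of the 18, 7 were counted for their BIX value alone and could only have ratios above 0. These were 4 cytokines and chemokines and 3 genes of survival, adhesion and enzymes, with PTGS2 among the latter. TNFAIP3 (A20), which ends NF-kappaB signalling by editing ubiquitin chains, had 35.1 FPKM with BIX against 1.62 in mock (3.78). NFKBIA (IkappaBalpha), the inhibitor that NF-kappaB itself induces, had 75.5 FPKM with BIX and 26.8 in mock (1.46). The subunit RELB had 32.4 FPKM with BIX against 4.93 in mock. NFKB1, the precursor of p50, had 52.6 FPKM with BIX and 10.8 in mock. RELA, the main activating subunit, had 58.0 FPKM with BIX against 47.9 in mock (0.27). Of 14 cytokines and chemokines listed 10 were counted and 8 called higher, 4 of which were below FPKM 1 in mock and were counted for their BIX value alone. These were CXCL3, IL1A, CCL20 and IL6. IL11 had 49.8 FPKM with BIX and 7.04 in mock. LIF, a cytokine of the same receptor family, had 118 FPKM with BIX against 23.6 in mock. CXCL3, a neutrophil chemokine, had 5.14 FPKM with BIX and 0.286 in mock. IL6 was near the bottom of the scale, with 1.31 FPKM with BIX against 0.138 in mock. CCL2 had a ratio of 0.19, and ICAM1 and VCAM1, adhesion molecules induced by TNF in other cells, were below FPKM 1 in both values. PTGS2 (COX-2), which makes prostaglandins, had 6.39 FPKM with BIX and 0.682 in mock.

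The CXCL8 promoter (chr4:73740319-73740618, plus strand) is printed because CXCL8 had the largest ratio among cytokines and its AP-1 element, TGANTCA, in capitals, is well known.
CXCL8: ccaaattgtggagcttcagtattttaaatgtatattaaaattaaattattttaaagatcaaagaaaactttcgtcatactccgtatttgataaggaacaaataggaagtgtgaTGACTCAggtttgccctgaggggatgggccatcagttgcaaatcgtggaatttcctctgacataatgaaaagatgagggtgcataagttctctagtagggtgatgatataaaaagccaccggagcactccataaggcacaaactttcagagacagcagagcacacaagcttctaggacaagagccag
This element was in 4.71% of all promoters, in 8.63% of those of higher genes and in 5.66% of those of lower genes.

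Secreted growth factors were mixed, with 8 of 27 higher and 2 lower. HBEGF, a ligand of the EGF receptor, had 73.2 FPKM with BIX against 10.9 in mock (2.64). AREG, another one, had 2.89 FPKM with BIX and 0.672 in mock, and was counted for its BIX value alone. Within the TGF-beta superfamily, INHBA, the activin A subunit, had 106 FPKM with BIX against 15 in mock. BMP2 had 32.2 FPKM with BIX and 4.16 in mock. BMP4 was lower with 14.9 FPKM with BIX against 56.4 in mock (-1.86). VEGFA, the main angiogenic factor, had 53.3 FPKM with BIX and 19.9 in mock. EDN2, a vasoconstrictor peptide gene, was lower with 3.98 FPKM with BIX against 19.2 in mock.

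Autophagy genes were read next because the series' title ties H3K9 methylation to autophagy and ATG5 acts in it. Of 51 genes counted 8 were higher and 1 lower, and the list median was 0.20. That median was 0.0025 at the same FPKM sum and 0.023 after quantile normalization. Of the ULK complex, which starts the process, ATG101 had 88.2 FPKM with BIX and 28.7 in mock (1.59). ULK1, its kinase, had 15.8 FPKM with BIX against 13.0 in mock. None of the 7 genes of the VPS34 complex was called. BECN1 had 16.1 FPKM with BIX and 21.9 in mock (-0.43). None of 8 genes of the ATG9, ATG2 and WIPI group was called. In the conjugation machinery, where ATG5 belongs, ATG12 had 40.5 FPKM with BIX against 11.2 in mock (1.76). ATG3, the enzyme that hands LC3 to its lipid, had 106 FPKM with BIX and 52.7 in mock (1.00). ATG16L1, which holds the ATG5-ATG12 conjugate at the membrane, had a ratio of 0.18.

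Of the LC3 and GABARAP proteins, which coat the autophagosome, MAP1LC3B had 265 FPKM with BIX against 54.0 in mock (2.28), the largest ratio on the list. GABARAPL1 had 106 FPKM with BIX and 42.8 in mock (1.29). GABARAPL2 had 80.6 FPKM with BIX against 66.4 in mock. Of 11 receptors SQSTM1 (p62), which carries ubiquitinated cargo, was called, with 184 FPKM with BIX and 66.3 in mock (1.46). NBR1, which acts beside it, had 28.5 FPKM with BIX against 23.9 in mock. Of 6 fusion genes 2 were higher and 1 lower. EPG5, a tether between autophagosome and lysosome, had 13.0 FPKM with BIX and 3.97 in mock. The entry holding PLEKHM1, an adaptor of the late endosome, had a ratio of 1.51. STX17, the fusion protein of the autophagosome, was lower with 1.77 FPKM with BIX against 4.72 in mock (-1.04).

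On the lysosome list 12 of 45 genes were higher and 0 lower, with a median of 0.40. At the same FPKM sum 8 of 46 were higher and the median was 0.077, and after quantile normalization the median was 0.13. The proton pump and the nutrient sensors held 11 of the 12. Of 14 V-ATPase subunits 6 were higher, against 3 of 15 at the same FPKM sum. ATP6V1C1, of the part that uses ATP, had 30.9 FPKM with BIX and 8.53 in mock (1.74). ATP6V1B2 of the same part had 67.0 FPKM with BIX against 24.6 in mock. ATP6V1D, of the rotating stalk, had 117 FPKM with BIX and 52.6 in mock. ATP6V1A, the catalytic subunit, had 12.0 FPKM with BIX against 12.7 in mock (-0.07). Of 11 regulators 5 were higher. FLCN, which with FNIP1 controls the Rag GTPases on the lysosome, had 23.6 FPKM with BIX and 5.99 in mock (1.81). FNIP1 had 17.6 FPKM with BIX against 5.29 in mock. The Rag GTPase RRAGC had 35.4 FPKM with BIX and 14 in mock. Its paralog RRAGD had 7.48 FPKM with BIX against 2.60 in mock. TFEB had 7.99 FPKM with BIX and 3.92 in mock (0.87) and TFE3 a ratio of 0.93, both short of 2-fold. Among 20 membrane proteins and hydrolases, NPC1, which exports cholesterol from the lysosome, was called, with 19.0 FPKM with BIX against 5.85 in mock. The proteases CTSD and CTSB had ratios of 0.06 and 0.04, and LAMP1, the main lysosomal membrane protein, had one of 0.08. The E-box of lysosomal genes, TCACGTGA, a motif added after the others, was in 1.89% of all promoters and in 5 of 25 matched on this list, those of RRAGB, LAMP1, CTSA, ATP6V0D1 and ATP6V1G1.

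**Figure D4:**
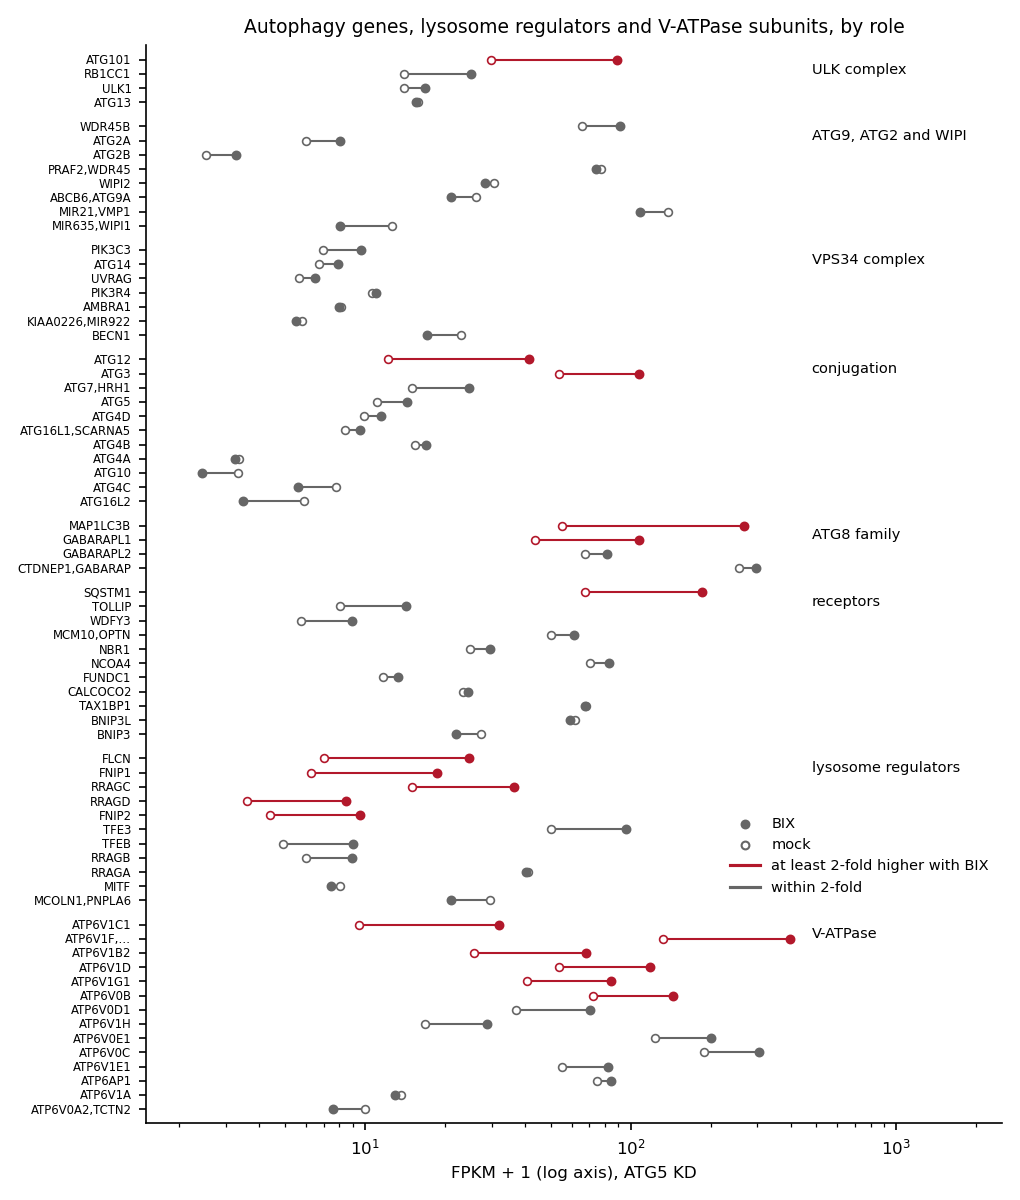
Levels of autophagy, V-ATPase and lysosome regulator genes in ATG5 KD cells, by role, with BIX and in mock, as FPKM + 1 on a log axis, 1 value per point, genes at least 2-fold apart joined by a red line, fusion genes not drawn. MAP1LC3B has the widest line, 265 FPKM with BIX and 54.0 in mock, and the 7 genes of the VPS34 complex lie within 2-fold.

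Of 40 genes of sterol and fatty acid synthesis counted 1 was higher and 1 lower. HMGCS1, the enzyme that makes HMG-CoA, had 161 FPKM with BIX and 41.6 in mock (1.93). SREBF1, a master factor of lipid synthesis, was lower with 7.97 FPKM with BIX against 19.3 in mock. SQLE, a later enzyme of cholesterol synthesis, had 32.6 FPKM with BIX and 55.6 in mock.

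Of 27 p53 targets and regulators counted 10 were higher and 0 lower, with a median of 0.78. At the same FPKM sum 7 were higher and 1 lower. CDKN1A (p21), which halts the cell cycle, had 412 FPKM with BIX against 108 in mock (1.92). The death receptor TNFRSF10B (DR5), also a known CHOP target, had 107 FPKM with BIX and 26.1 in mock (2.0). AEN, a nuclease of apoptotic cells, had 104 FPKM with BIX against 33.4 in mock. MDM2, which degrades p53, had 43.0 FPKM with BIX and 24.7 in mock (0.78). XPC, a sensor of DNA damage, had 13.4 FPKM with BIX against 27.8 in mock, a ratio of -1.0 that did not reach 2-fold. GADD45A, SESN2, PMAIP1 and BBC3 stand on other lists too.

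In the BCL2 family 5 of 16 genes were higher and 1 lower, on both the death and the survival side. Of the 5, HRK and the survival gene BCL2A1 were counted for their BIX value alone and could only have ratios above 0. BCL2A1 had 1.86 FPKM with BIX and 0.142 in mock. The lower gene, BMF, was counted for its mock value alone and could only have a ratio below 0. PMAIP1 (NOXA), a BH3-only killer, had 134 FPKM with BIX and 30.3 in mock (2.10). BBC3 (PUMA) had 50.2 FPKM with BIX against 13.1 in mock (1.86). HRK, of the same kind, had 6.51 FPKM with BIX and 0.734 in mock (2.11). BMF, a BH3-only protein released from the cytoskeleton, was lower with 0.278 FPKM with BIX against 3.75 in mock (-1.89). MCL1, the survival protein that NOXA binds, listed as a locus joined with ADAMTSL4-AS1, had 266 FPKM with BIX and 60.0 in mock (2.13). BCL2L1 (BCL-XL) had 128 FPKM with BIX against 86.4 in mock. The effector BAK1 had 35.4 FPKM with BIX and 17.3 in mock, a ratio of 0.99.

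Genes of proliferation had medians below 0. Of 56 DNA replication genes 0 were higher and 1 was lower, the median was -0.33 and 17 had a ratio above 0. At the same FPKM sum 10 of the 56 were lower and the median was -0.53. CCNE2, a cyclin of S phase entry, was lower with 2.42 FPKM with BIX against 7.42 in mock, and its paralog CCNE1 had 70.0 FPKM with BIX and 45.5 in mock. MCM4, a subunit of the replicative helicase, had 29.9 FPKM with BIX against 60.1 in mock (-0.98). MCM7 of the same complex had 172 FPKM with BIX and 167 in mock. MCM6 had 15.6 FPKM with BIX against 28.7 in mock. PCNA, the sliding clamp, had 145 FPKM with BIX and 230.3 in mock. ORC6, of the origin recognition complex, had 40.1 FPKM with BIX against 24.0 in mock. Of 43 mitosis genes 0 were higher and 4 lower, the median was -0.36 and 8 had a ratio above 0. At the same FPKM sum the median was -0.58. SPC24, of the kinetochore, had 4.43 FPKM with BIX and 24.1 in mock (-2.21). ESPL1 (separase), which parts sister chromatids, had 4.39 FPKM with BIX against 13.3 in mock. KIF20A, a kinesin of cytokinesis, had 16.4 FPKM with BIX and 44.2 in mock. TOP2A, the topoisomerase of dividing cells, had 62.8 FPKM with BIX against 134 in mock. None of 9 mitotic kinases and cyclins was called, and their median was -0.18. CDC25B, a phosphatase that activates CDK1, had 35.8 FPKM with BIX and 59.8 in mock (-0.73). CDK1, the 1 member with a ratio above 0, had 126 FPKM with BIX against 113 in mock.

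The MCM6 promoter (chr2:135876394-135876693, minus strand) is shown for the E2F motif TTTNNCGC, in capitals, with 4 matches that overlap in pairs.
MCM6: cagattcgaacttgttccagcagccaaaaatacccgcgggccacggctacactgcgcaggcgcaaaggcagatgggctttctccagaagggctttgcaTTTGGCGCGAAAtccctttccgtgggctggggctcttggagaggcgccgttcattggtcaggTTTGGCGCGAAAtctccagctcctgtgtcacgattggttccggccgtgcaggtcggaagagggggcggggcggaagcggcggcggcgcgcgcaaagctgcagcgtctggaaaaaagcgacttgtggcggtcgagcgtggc
The motif was in 10.7% of all promoters and in 24 of the 42 matched on the DNA replication list (57.1%), in 8.63% of the promoters of higher genes and in 6.6% of those of lower genes.

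The enzymes that BIX is known to inhibit and their relatives were read for their own RNA. EHMT2, listed as a locus joined with ZBTB12, had 9.02 FPKM with BIX and 20.3 in mock (-1.09). EHMT1 had 8.67 FPKM with BIX against 8.96 in mock. SUV39H1, a trimethylating enzyme of heterochromatin, had 12.8 FPKM with BIX and 20.6 in mock (-0.65). SETDB1, which trimethylates H3K9 at repeats, had 11.2 FPKM with BIX against 9.28 in mock. Of 16 partners and readers 1 was higher and 1 lower. ZNF644, a zinc finger partner of EHMT1 and EHMT2, had 27.6 FPKM with BIX and 12.7 in mock. DNMT3B, which methylates DNA anew, had 2.74 FPKM with BIX against 8.24 in mock. Of 9 demethylases KDM7A was called, with 5.18 FPKM with BIX and 1.00 in mock. Of 371 genes with ZNF names, mostly zinc finger repressors, 22 were higher and 11 lower, beside 8.02% and 3.68% of all genes. At the same FPKM sum 12 of 377 were higher and 25 lower, so the balance turned with scaling, as it did for all genes. Of the 371, 35 were counted for their mock value alone, with 1 called lower. Another 4 were counted for their BIX value alone, with 1 called higher. Of 5 clustered protocadherin entries counted 0 were higher and 2 lower. Of 30 replication-dependent histone genes 3 were higher and 1 lower, but their RNAs lack poly(A) tails and their copies are near-identical, so these values are uncertain.

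Of 28 interferon-stimulated genes 1 was higher and 1 lower, with a median of -0.22. At the same FPKM sum 3 were lower and the median was -0.42. ISG20, a ribonuclease, had 5.68 FPKM with BIX against 1.4 in mock. IFI44 had 4.87 FPKM with BIX and 12.4 in mock. IFIT1, which binds viral RNA ends, had 0.358 FPKM with BIX against 1.54 in mock. Among 8 DNA sensing genes counted, the entry with IFI16, a nuclear DNA sensor, was higher with 40.5 FPKM with BIX and 16.3 in mock. The entry joining ATRIP with TREX1, a cytosolic DNA nuclease, was lower with 3.93 FPKM with BIX against 13.3 in mock. TMEM173 (STING) had 1.70 FPKM with BIX and 3.19 in mock. MB21D1 (cGAS), the cytosolic DNA sensor upstream of it, had 3.61 FPKM with BIX against 3.20 in mock.

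Small nucleolar RNA host genes, long RNAs whose introns give guide RNAs of ribosome assembly, were higher in 10 of 16 cases and lower in 0. SNHG17 had 94.5 FPKM with BIX and 11.0 in mock (2.99). The ZFAS1 locus had 670.5 FPKM with BIX against 85.0 in mock (2.97). The GAS5 locus had 567 FPKM with BIX and 124 in mock (2.18). Spliced host RNAs such as GAS5 are known to be degraded while they are translated. A joined entry can include its embedded small RNAs, so its FPKM is not that of the host alone. Of 36 ribosome biogenesis genes 9 were higher and 0 lower, with a median of 0.58. At the same FPKM sum 3 of them were higher and the median was 0.38. RRP12, which helps to export ribosomal subunits, had 23.0 FPKM with BIX against 7.39 in mock. GNL3 (nucleostemin) had 101 FPKM with BIX and 48.2 in mock. The median of 82 cytosolic ribosomal protein genes, 0.21, turned to -0.01 at the same FPKM sum and -0.02 after quantile normalization. Of 77 respiratory chain and ATP synthase genes and of 46 proteasome genes 0 were called either way, nor was any of 17 glycolysis genes.

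Matrix genes were mixed. Of 25 collagens 2 were higher and 3 lower, with a median of -0.31 that was -0.52 at the same FPKM sum. COL5A3 was higher with 15.1 FPKM with BIX against 4.08 in mock. COL5A1, of the same fibril type, was lower with 32.0 FPKM with BIX and 65.4 in mock. COL11A1 was lower with 10.0 FPKM with BIX against 23.2 in mock. Of 22 further matrix genes 1 was higher and 1 lower. THBS1 (thrombospondin 1), which binds cells to matrix and activates latent TGF-beta, had 50.3 FPKM with BIX and 156 in mock (-1.62). Of 13 targets of TGF-beta and BMP 2 were higher and 1 lower. SKIL, a repressor of SMAD factors, had 41.7 FPKM with BIX against 17.0 in mock. SMAD6, an inhibitor of BMP signalling, had 3.93 FPKM with BIX and 10.1 in mock.

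The 15 smallest ratios among genes with FPKM 5 or more were spread over other functions. FOXS1, a forkhead factor, had 1.05 FPKM with BIX against 15.4 in mock (-3.0), the lowest ratio of all genes counted. LBH, a regulator of transcription in limb and heart development, had 10.2 FPKM with BIX and 64.5 in mock (-2.55). FAM120B had 1.34 FPKM with BIX against 12.3 in mock. DRD1, a dopamine receptor, had 1.55 FPKM with BIX and 11.4 in mock. WNT5B, a secreted ligand, had 0.546 FPKM with BIX against 5.46 in mock. SOCS1, which inhibits JAK kinases, had 1.92 FPKM with BIX and 10.4 in mock. DAG1 (dystroglycan), which ties the cell to laminin, had 5.21 FPKM with BIX against 23.1 in mock. SDPR, a protein of caveolae, had 0.818 FPKM with BIX and 6.27 in mock. SPC24, HSPA8 and EDN2, described above, were among the 15, with TMEM37, C21orf58, LRRN1 and the joined entry of HRCT1 with LINC00961. All 15 exceeded their replicate differences, of which the highest was 0.77. They were chosen for their small ratios, so this follows in part from the choice. WNT5B, SDPR and the entry of HRCT1 with LINC00961 were counted for their mock value alone and could only have ratios below 0.

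The limit of FPKM 1 decides which genes are counted. Just inside it lay EPN3 (0.312 FPKM with BIX against 1.00 in mock), OAS1 (0.543 FPKM with BIX and 1.00 in mock) and CHRNB4 (1.00 FPKM with BIX against 0.439 in mock). PPM1N, NBEA and PCSK4 lay just outside it. The highest levels with BIX were those of MT2A and of GAPDH, which had 6152 FPKM with BIX and 5893 in mock. ACTB, a cytoskeletal gene often used for scaling, had 2656 FPKM with BIX against 3688 in mock, and 5 of the 10 most abundant genes encode ribosomal proteins.

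The same ratio in vector cells, which have a mock value of their own, shows how much of the response was found under both labels. In vector cells 797 of 12566 genes were higher with BIX (6.34%) and 538 lower (4.28%). Higher in both were 660 genes, which is 65.3% of those in ATG5 KD and 82.8% of those in vector. Lower in both were 343 genes, 73.9% of those in ATG5 KD and 63.8% of those in vector, and 0 genes were 2-fold higher under 1 label and 2-fold lower under the other. Of the 160 genes 4-fold higher in ATG5 KD 151 were at least 2-fold higher in vector, and of the 13 genes 4-fold lower all 13 were lower. The 1011 genes higher in ATG5 KD had a median ratio of 1.35 there and 1.17 in vector, and 800 of them had the larger ratio in ATG5 KD. They were chosen for being high in ATG5 KD, so a larger value there follows in part from the choice. The FPKM sum with BIX was 1.16 times that of mock in ATG5 KD and 1.09 times in vector, and the part of this in the larger ratios of ATG5 KD was not tested.

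MAP1LC3B had 265 FPKM with BIX and 54.0 in mock in ATG5 KD and 213 FPKM with BIX against 49.8 in mock in vector, ratios of 2.28 and 2.08. SQSTM1 had 184 FPKM with BIX and 66.3 in mock in ATG5 KD and 171 FPKM with BIX against 64.2 in mock in vector, ratios of 1.46 and 1.4. DDIT3 had 260.1 FPKM with BIX and 8.45 in mock in vector (4.79). MT2A had 9480.3 FPKM with BIX against 764 in mock in vector (3.63). HSPA8 had 195 FPKM with BIX and 664 in mock in vector (-1.77). The list medians of immediate early genes were 2.16 in ATG5 KD and 1.83 in vector, and those of the autophagy list 0.20 and 0.11. Of the immediate early genes 5 were counted for their BIX value in ATG5 KD alone. The dual-specificity phosphatases were higher in 7 of 7 cases in ATG5 KD and in 6 of 7 in vector.

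Of 9736 genes compared between the labels, 66 had a ratio larger by at least 1 in ATG5 KD and 8 a ratio smaller by at least 1. This difference has no replicate and was not tested. FOS had 209.8 FPKM with BIX against 4.06 in mock in ATG5 KD and 62.5 FPKM with BIX and 3.96 in mock in vector, ratios of 5.38 and 3.68. RRAD had 29.2 FPKM with BIX against 0.332 in mock in ATG5 KD and 2.05 FPKM with BIX and 0.373 in mock in vector, ratios of 4.50 and 1.15. ARL14 had 51.6 FPKM with BIX against 2.02 in mock in ATG5 KD and 7.01 FPKM with BIX and 1.13 in mock in vector. SNAI1 (Snail), a repressor of epithelial genes, had 58.9 FPKM with BIX against 8.59 in mock in ATG5 KD and 17.5 FPKM with BIX and 10.9 in mock in vector, ratios of 2.64 and 0.64. For RRAD and SNAI1 the mock values of both labels lay closer together than the BIX values. SYTL2, a vesicle trafficking gene, had a ratio of 0.46 in ATG5 KD and of -1.97 in vector. SMAD6 had 3.93 FPKM with BIX against 10.1 in mock in ATG5 KD and 16.1 FPKM with BIX and 18.2 in mock in vector.

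**Figure D5:**
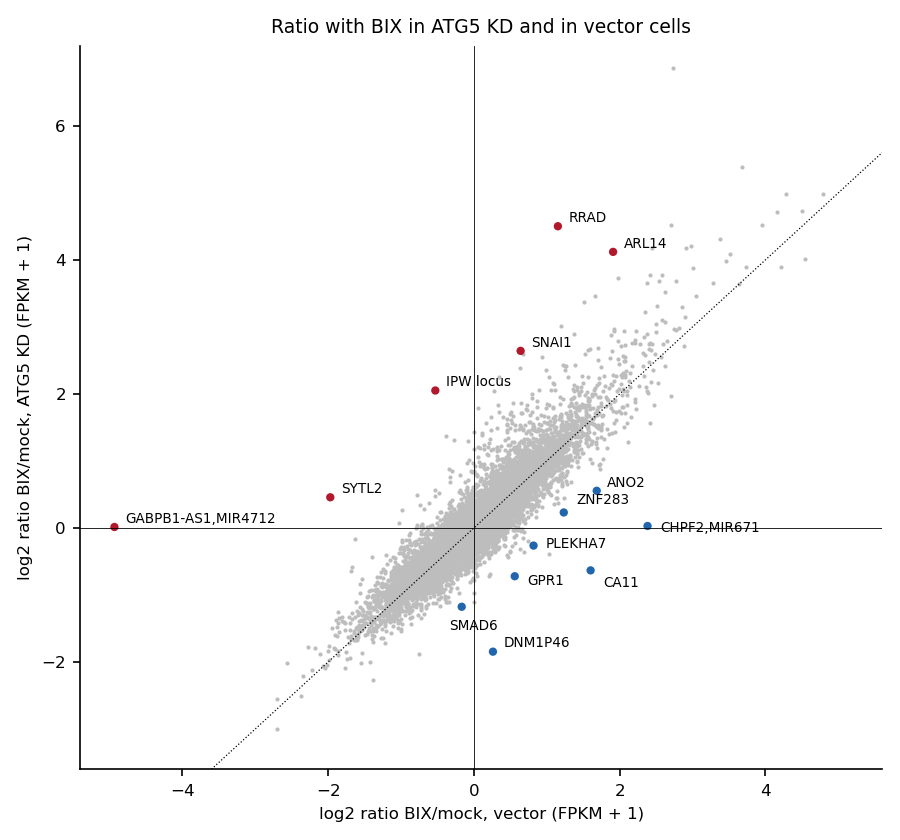
Log2 ratio of BIX over mock in ATG5 KD (vertical axis) and in vector cells (horizontal axis), 1 point per gene, with a dotted line where both are equal and named genes with large differences labelled, red where ATG5 KD is larger and blue where vector is. RRAD lies at 4.50 in ATG5 KD and 1.15 in vector.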

How the data were processed

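RNA was measured in U2OS cells by sequencing of poly(A)-selected TruSeq libraries as paired ends on an Illumina instrument, per the labels' protocols. Per the submitters' processing notes the authors used FastQC, cutadapt, TopHat2 and Cufflinks with hg19, with versions, annotation and strandedness not given in the sources used here. FPKM per gene was deposited by the authors, 1 value per group standing for 2 replicates. Read counts are not known, so the depth, and with it the precision of low values, is unknown. From these values log2 ratios with a pseudocount of 1 were computed (Python 3.11.15, pandas 2.3.3, numpy 2.4.6) and checked on simulated data. A gene was counted at FPKM 1 or more in 1 of the 2 values. Of repeated symbols the entry with the highest mean was kept, loci joining several symbols counted as 1 gene, and 1797 genes of short RNAs were left out by name. With 1 value per group there was no test. Named genes were the 20 largest and 15 smallest ratios at FPKM 5 or more, up to 6 members per list with the largest ratios, members whose role orders the text, and the 8 genes each way with the largest difference between ATG5 KD and vector. Other genes were named for their role, and a few genes that these rules name are not reported here. The members and lists were chosen with earlier results of these data known. Alternatives were 8 other settings of pseudocount, filter and scaling.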

Additional observations from a re-analysis of the deposited data

Results flagged for a closer look

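Among the 16 genes with the largest differences of the log2 ratio of BIX over mock between ATG5 KD and vector, 8 each way, 7 had ratios on opposite sides of zero. Other genes outside these 16 also had ratios of opposite sign, which were not examined further. The difference was not tested in any of the 7 because each label has 1 ratio. The entry of GABPB1-AS1 with MIR4712 had a ratio of 0.0135 in ATG5 KD and -4.93 in vector, where its values were 3.88 FPKM with BIX against 148 in mock. The IPW locus, a spliced RNA and snoRNA cluster of the Prader-Willi region, had 42.2 FPKM with BIX and 9.43 in mock in ATG5 KD (2.05) and 6.66 FPKM with BIX and 10.1 in mock in vector (-0.53). SYTL2 had a ratio of 0.46 in ATG5 KD and -1.97 in vector. CA11, a carbonic anhydrase relative that is also part of a joined entry with DBP, had a ratio of -0.63 in ATG5 KD and 1.60 in vector. The pseudogene DNM1P46 had a ratio of -1.85 in ATG5 KD and 0.26 in vector. GPR1, a receptor for chemerin, had a ratio of -0.72 in ATG5 KD and 0.56 in vector. PLEKHA7, a protein of cell junctions, had a ratio of -0.26 in ATG5 KD and 0.82 in vector.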

How the results depend on the processing

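Over 8 other settings the number of genes higher with BIX ran from 695 to 1307 and stayed within 1.5 times of 1011. The number lower moved beyond that under 2 of them, to 1043 with a pseudocount of 0.1 and to 839 after scaling to the same FPKM sum. The cause was not tested. The median of cytosolic ribosomal proteins changed sign, to -0.0221 after quantile normalization and to -0.00641 at the same FPKM sum. Counted over lists and settings, 187 other medians stayed within the typical difference between replicates and 107 moved beyond it. For medians this limit was not the 0.24 given above. The stress response median, 1.14, counted as moved at 1.25 with a pseudocount of 0.1. Counted over the genes with the largest and smallest ratios and the H3K9 methyltransferases and settings, 283 ratios stayed within that difference and 49 moved beyond it. None of these medians and ratios that was larger than that difference changed sign. Smaller medians did in places. That of cytosolic heat shock genes, 0.0273, was -0.195 after quantile normalization and -0.19 at the same FPKM sum. That of endoplasmic reticulum folding and degradation genes, -0.018, was 0.0435 with joined loci left out. Leaving out a replicate could not be done, since the 2 replicates behind each value were not held. No paired analysis was possible because each group has 1 value. Depth is unknown, so a gene listed at 0 may have been missed.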

Other observations

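Of 11 circadian genes counted 6 were higher with BIX and 0 lower, with a median of 1.05 in ATG5 KD and 1.14 in vector, beside 8.02% of all genes called higher. NR1D1 (REV-ERBalpha), a repressor of ARNTL, had 101 FPKM with BIX and 14.1 in mock (2.75). The period gene PER1, part of the feedback loop, had 34.4 FPKM with BIX against 6.89 in mock. Its paralog PER2 had 8.66 FPKM with BIX and 1.75 in mock. CRY1, their partner, had 39.2 FPKM with BIX against 13.0 in mock, and ARNTL (BMAL1), the activator, had 20.7 FPKM with BIX and 9.46 in mock (1.05). CLOCK, which pairs with ARNTL, had a ratio of 0.00, and the entry holding DBP, an output gene, had -0.28.

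Small GTPases differed within a list in which 8 of 25 were higher and 1 lower. RND3, a GTPase that acts on actin, had 153 FPKM with BIX against 28.0 in mock (2.41), RASL11A, a Ras-like protein of the nucleolus, had 9.19 FPKM with BIX and 0.374 in mock, and RIT1 had 29.5 FPKM with BIX against 8.57 in mock. RHOB, an early response gene of the same family, had 87.6 FPKM with BIX and 53.3 in mock (0.71), and RHOA and CDC42 had ratios of 0.27 and 0.30. The entry joining LRRC45 with RAC3 was lower, at -1.62. Of 6 bHLH repressors counted 2 were higher, with BHLHE40, which also represses clock genes, at 155 FPKM with BIX against 44.5 in mock, and HES1, the main Notch target, had 18.9 FPKM with BIX and 30.5 in mock. Among hypoxia targets ADM (1.70) and VEGFA (1.38) were higher. CA9 and EGLN3, which are standard HIF targets, were called lower. CA9 had 0.811 FPKM with BIX and 2.89 in mock (-1.10), and EGLN3 had 0.907 FPKM with BIX against 3.14 in mock (-1.12). Both were counted for their mock value alone and could only have ratios below 0.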
